A study of Homo sapiens with 10 samples.

Results

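The 10 genes described here encode 5 Eph receptors (EPHA2, EPHA4, EPHB2, EPHB3 and EPHB4) and 5 of their ligands, the ephrins (EFNA1, EFNA3, EFNA4, EFNB1 and EFNB2). They were taken by symbol from a table of 20263 genes, and all 10 were found. PANC-1, a widely used cell line derived from a human carcinoma of the pancreas, was profiled by RNA sequencing after 24 h in 20 µM LY (5 libraries) or in DMSO, its solvent control (5 libraries). LY is read here as lycorine, the plant alkaloid named in the series title, and the series asks how it affects these cells. The labels name no genetic change in the cells. Whether the 5 libraries of a group are separate cultures is not stated, so p-values measure only the spread between these samples, which may be technical. The labels list 5 libraries per group where the design text counts 4, and all 10 were used. Control columns are named NC-1 to NC-5 and were assigned to DMSO as a group.

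Eph receptors are the largest family of receptor tyrosine kinases. Their ligands are tethered to the surface of the neighbouring cell, so signalling needs contact between cells. A-type ephrins are held by a lipid (GPI) anchor and bind mostly EphA receptors. B-type ephrins cross the membrane, bind mostly EphB receptors and EPHA4, and carry a tail that signals back into the ligand-bearing cell. The outcome is often repulsion or sorting of cells, as in axon guidance, in the intestinal crypt and at the border of arteries and veins. EPHA2 is widely studied in pancreatic and other carcinomas, where it is often abundant while its ligand EFNA1 is low.

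After LY, the receptors EPHA2 and EPHA4 and the B-type ligands EFNB1 and EFNB2 were higher. The A-type ligands EFNA1, EFNA3 and EFNA4 were lower. Of the ephrins outside the 10 genes, the A-type EFNA5 was higher, and the A-type EFNA2 and the B-type EFNB3 were lower. EPHA4 rose 3.39-fold and EPHA2 2.67-fold by the ratio of mean TPM, a relative transcript level corrected for transcript length and so comparable between genes. EFNA4 was 3.66-fold and EFNA1 2.83-fold lower by the same ratio. EPHB2 and EPHB4 did not pass the test, and EPHB3 was too low to be tested. Of the 10 genes, 9 passed the filter on low values (at least 1 TPM in at least 5 of 10 libraries). EFNB2 passed it through the LY libraries alone, so it had to differ and its call carries no weight. Apart from EFNB2, EPHA2, EPHA4 and EFNB1 rose and EFNA1, EFNA3 and EFNA4 fell (limma-trend on log2(TPM + 1), Benjamini-Hochberg adjusted p under 0.05). With EFNB2 included, 4 of the 9 rose and 3 fell. Most genes passed this test: of 11663 tested genes 64.6% were called, 39.8% upward and 24.9% downward. Over all genes 4639 rose and 2899 fell, but 3977 and 3756 did with median-ratio scaling between libraries, and 3452 and 4228 with upper-quartile scaling, so a small change can switch sides with the scaling. The 7 of 9 called here, which include EFNB2, are read against that background, and the account below rests on single genes. Groups did not overlap in 7 of the 9, EFNB2 included, where 49.4% of all tested genes did not overlap. For EFNB2 the filter fixed this outcome in advance.

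**Figure D1:**
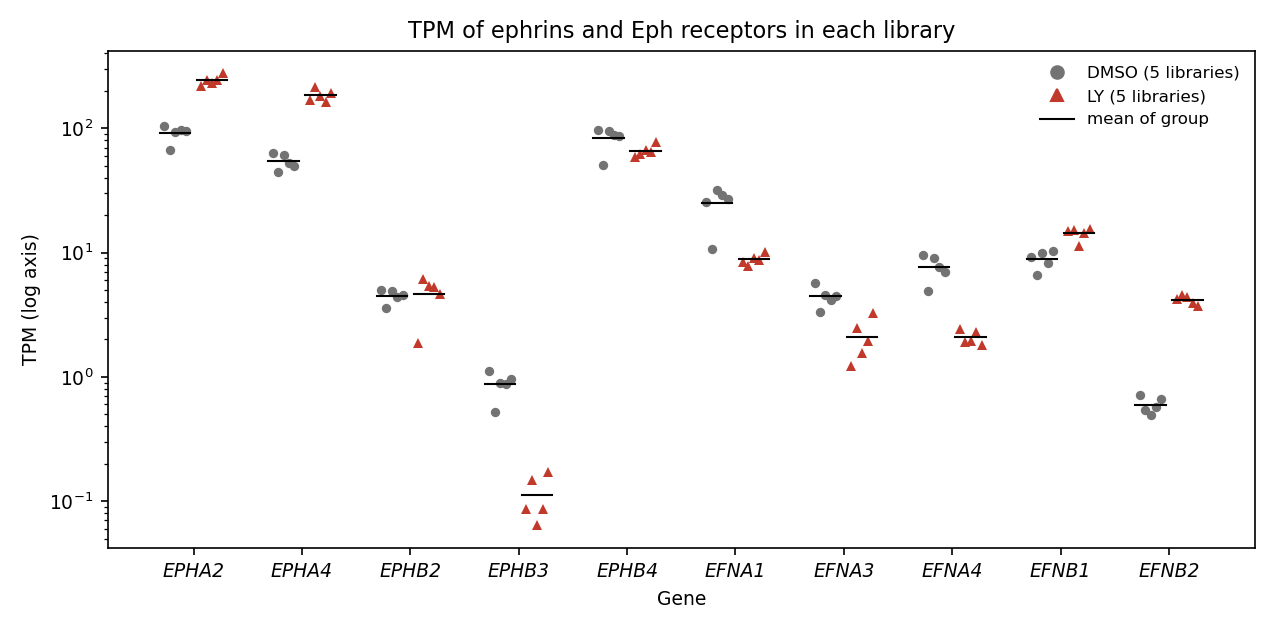
TPM (log axis) of each of the 10 genes in each of the 5 DMSO libraries (grey circles) and 5 LY libraries (red triangles), with black bars at the group means. EPHA2, EPHA4, EFNB1 and EFNB2 lie higher in every LY library, EFNA1, EFNA3, EFNA4 and EPHB3 lie lower, and EPHB2 and EPHB4 overlap.

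The promoters of 5 of the called genes are shown because these genes moved in opposite directions. All 10 genes matched the RefSeq promoter windows (GRCh38.p14, 250 bases before to 50 after the start site), with 2 separate starts for EPHA4. Printed 5′ to 3′ on the gene's strand are 3 windows of genes that rose, EPHA2 (chr1:16156020-16156319, minus strand), EPHA4 at its downstream start (chr2:221572255-221572554, minus) and EFNB2 (chr13:106535613-106535912, minus), and 2 of genes that fell, EFNA1 (chr1:155127626-155127925, plus) and EFNA4 (chr1:155063490-155063789, plus). Capitals mark matches, on either strand, to 7 short motifs chosen after these promoters had been seen. The AP-1 motif was searched as TGANTCA. The cAMP response element, or CRE, was searched in its full form of TGACGTCA. The motif of TEAD factors was searched as GGAATG. For Sp1, which binds GC boxes, the letters were GGGCGG. For TCF factors of the Wnt pathway the letters were CTTTGA. The CCAAT box was searched by its own letters. The TATA box was searched as TATAAA. Matches that overlap run together in capitals.
EPHA2: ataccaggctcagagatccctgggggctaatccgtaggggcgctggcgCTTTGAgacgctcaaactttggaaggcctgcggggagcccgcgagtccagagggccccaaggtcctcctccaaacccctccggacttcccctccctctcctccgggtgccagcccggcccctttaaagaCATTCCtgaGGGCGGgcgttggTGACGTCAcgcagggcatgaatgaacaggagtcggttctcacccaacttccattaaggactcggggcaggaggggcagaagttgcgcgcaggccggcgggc
EPHA4: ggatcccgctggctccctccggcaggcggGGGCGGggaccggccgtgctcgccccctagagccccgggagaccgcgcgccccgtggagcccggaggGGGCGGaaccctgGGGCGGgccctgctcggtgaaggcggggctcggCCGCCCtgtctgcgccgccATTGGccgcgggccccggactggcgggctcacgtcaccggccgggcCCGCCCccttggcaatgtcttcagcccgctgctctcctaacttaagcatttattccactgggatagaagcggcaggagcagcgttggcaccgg
EFNB2: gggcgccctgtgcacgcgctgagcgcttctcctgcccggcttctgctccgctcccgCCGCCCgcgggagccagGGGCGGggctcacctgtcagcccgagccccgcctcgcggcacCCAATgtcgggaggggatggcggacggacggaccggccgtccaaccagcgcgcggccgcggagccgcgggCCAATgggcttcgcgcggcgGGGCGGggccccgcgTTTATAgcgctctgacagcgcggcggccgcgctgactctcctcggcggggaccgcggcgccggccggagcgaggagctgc
EFNA1: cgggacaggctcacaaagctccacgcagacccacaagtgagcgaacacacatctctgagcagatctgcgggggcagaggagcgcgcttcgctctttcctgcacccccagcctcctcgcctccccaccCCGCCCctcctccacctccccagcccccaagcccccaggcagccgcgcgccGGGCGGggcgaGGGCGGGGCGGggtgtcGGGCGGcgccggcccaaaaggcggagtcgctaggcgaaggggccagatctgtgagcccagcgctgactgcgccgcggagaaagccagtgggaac
EFNA4: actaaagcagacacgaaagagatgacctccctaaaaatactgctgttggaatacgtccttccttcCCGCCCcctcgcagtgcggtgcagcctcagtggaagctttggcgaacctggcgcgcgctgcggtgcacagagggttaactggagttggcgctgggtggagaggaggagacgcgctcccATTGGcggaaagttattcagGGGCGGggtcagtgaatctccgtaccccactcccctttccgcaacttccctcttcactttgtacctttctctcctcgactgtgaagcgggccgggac

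Of the 11 windows of the 10 genes, the EPHA2 window was the 1 with a CRE match, at -51 from the start site, where 1.85% of 35116 promoter windows hold one. It also held a TEAD match at -73 (14.03% of windows) and a TCF match at -202 (12.9%). EFNB2 had a TATAAA match at -30 (11.5% of windows, either strand) and CCAAT at -135 and -65 (34.6%). That TATAAA lies on the strand opposite to the gene and is printed as TTTATA. The EFNA1 window held 5 Sp1 matches and none of the other 6 motifs, and 45.0% of windows hold Sp1. EFNA4 held 2 Sp1 matches and 1 CCAAT. AP-1 letters were in none of the 11 windows, against 7.71% of all windows. GC content ran from 43.0% at the upstream start of EPHA4 to 83.0% in EPHB2, with a median of 58.7% over all windows. These matches describe letters in a window and no binding was measured.

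Libraries were checked first. TPM keeps no read totals, so depth is unknown. Mitochondrially encoded genes took 37.5% of TPM in control NC-2, against 12.2% to 14.1% in the other controls and 6.43% to 14.9% in LY. NC-2 was the lowest control in 9 of the 10 genes and in 63.4% of all tested genes, so the fits of the 9 tested genes and of the other family genes, and the counts over the gene lists, were repeated without it. No 2 libraries were identical. Of 7 ductal and epithelial markers KRT7 and CDH1 were under 1 TPM in every library. KRT19 fell from 148 ± 16.6 to 20.97 ± 3.47 TPM (log2 fold change -2.77 ± 0.13), KRT18 rose (0.50 ± 0.10), and KRT8, SOX9 and EPCAM did not pass. The 7 summed to 2355 to 2759 TPM in LY and 2030 to 2720 in DMSO. The 5 acinar and 4 endocrine markers were under 1 TPM throughout. Of 5 leukocyte markers CD68 rose (39.8 to 179 TPM) and made up nearly all of the summed level (131 to 232 TPM in LY, 35.0 to 47.7 in DMSO), while CD3E was at 0 and PTPRC was at 0.0214 TPM or less. CD14, of the same list, was lower in LY without overlap (0 to 0.113 TPM, against 0.340 to 0.559 in DMSO) and too low to be tested. Of 5 fibroblast markers COL1A1, which passed the filter through DMSO alone, and COL1A2 fell (sum 27.7 to 37.7 TPM in LY, 68.9 to 115 in DMSO), and DCN and LUM were at 0. The part of these markers in the results below was not tested.

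EPHA2 (ENSG00000142627, chromosome 1, 16124337 to 16156087), a receptor of A-type ephrins, had the highest mean of the family in both groups, although EPHB4 exceeded it in NC-3. It measured 220, 246, 230, 244 and 277 TPM in LY-1 to LY-5 and 105, 66.4, 92.8, 96.2 and 94.3 TPM in NC-1 to NC-5. All LY libraries were above all controls. The group means were 243 ± 21.5 and 90.9 ± 14.5 TPM (SD, n = 5 each), a log2 fold change of 1.42 ± 0.13 (SE of the limma fit, adjusted p = 1.34e-06). In bulk RNA, a change in RNA per cell and a change in the share of cells that carry it cannot be told apart.

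EPHA4 (ENSG00000116106, chromosome 2, 221418027 to 221574202) binds ligands of both types and is best known from axon repulsion. It measured 168, 214, 182, 164 and 193 TPM in LY-1 to LY-5 and 63.6, 44.1, 61.5, 52.6 and 50.2 TPM in NC-1 to NC-5. The lowest LY library stood at more than double the highest control. Its log2 fold change was 1.75 ± 0.12 (limma adjusted p = 1.97e-07). The ratio of EPHA4 to EPHA2 within a library, which a single scaling factor per library cannot alter, was 0.673 to 0.871 in LY and 0.532 to 0.664 in DMSO, without overlap. An antisense gene on the opposite strand shares 353 exonic bases with EPHA4.

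EPHB4 (ENSG00000196411, chromosome 7, 100802565 to 100827521) is the receptor of EFNB2 and marks veins in the vasculature. Its levels were 58.6, 62.0, 67.3, 65.1 and 76.9 TPM in LY-1 to LY-5 and 97.3, 50.7, 95.1, 88.1 and 86.0 TPM in NC-1 to NC-5. The 5 LY libraries lay below 4 controls and above NC-2. The log2 fold change of -0.30 ± 0.17 did not pass (limma adjusted p = 0.127, 95% interval -0.67 to 0.058). Without NC-2 it was -0.47 ± 0.089 and passed (adjusted p = 0.000612), and it also passed downward with median-ratio, upper-quartile and quantile scaling and after removal of the mitochondrial genes. Within libraries the ratio of EPHA2 to EPHB4 was 0.976 to 1.31 in all 5 controls, NC-2 included, and 3.41 to 3.96 in LY. EPHB4 shares 69 exonic bases with SLC12A9 on the opposite strand, and whether the counting used strand is not stated.

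EPHB2 (ENSG00000133216, chromosome 1, 22710839 to 22921500), a receptor of B-type ephrins in crypts and synapses, was low in both groups. It measured 1.87, 6.15, 5.34, 5.29 and 4.64 TPM in LY-1 to LY-5 and 5.03, 3.58, 4.87, 4.36 and 4.53 TPM in NC-1 to NC-5. LY-1 was the lowest of all 10 libraries. LY-5 lay within the control range and LY-2, LY-3 and LY-4 above it. No difference was detectable (log2 fold change -0.012 ± 0.22, 95% interval -0.49 to 0.46, limma adjusted p = 0.967), and without LY-1 the estimate was 0.22 (adjusted p = 0.136).

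EPHB3 (ENSG00000182580, chromosome 3, 184561784 to 184582409), which acts beside EPHB2 in the crypt, stood at the edge of detection. It measured 0.0869, 0.149, 0.0641, 0.0873 and 0.173 TPM in LY-1 to LY-5 and 1.12, 0.526, 0.887, 0.870 and 0.963 TPM in NC-1 to NC-5. Every LY library was below every control. Because 1 of 10 libraries reached 1 TPM, EPHB3 was left out of the main fit. In the fit without a filter (20263 genes, 4217 of them at 0 in every library) its log2 fold change was -0.75 ± 0.080 (limma adjusted p = 7.74e-05). How far the genes at 0 affect that p was not tested.

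EFNA1 (ENSG00000169242, chromosome 1, 155127460 to 155134857), the best-known ligand of EPHA2, had the highest mean of the ephrins in DMSO and was the highest in 4 of 5 controls. It measured 8.36, 7.87, 9.12, 8.64 and 10.05 TPM in LY-1 to LY-5 and 25.3, 10.7, 32.2, 29.3 and 26.9 TPM in NC-1 to NC-5. NC-2 lay just above the highest LY library and far below the other controls. The log2 fold change was -1.32 ± 0.24 (limma adjusted p = 0.000423), and -1.58 ± 0.099 without NC-2. After removal of the mitochondrial genes and rescaling, NC-2 held 17.2 TPM and the other controls 29.5 to 37.2.

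EFNA4 (ENSG00000243364, chromosome 1, 155063731 to 155069553), is a further A-type ligand. It measured 2.41, 1.92, 1.95, 2.30 and 1.80 TPM in LY-1 to LY-5 and 9.56, 4.88, 9.04, 7.59 and 6.93 TPM in NC-1 to NC-5. The highest LY library held less than the lowest control. The log2 fold change was -1.46 ± 0.15 (limma adjusted p = 5.58e-06).

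EFNA3 (ENSG00000143590, chromosome 1, 155078872 to 155087538) measured 1.21, 2.46, 1.54, 1.96 and 3.25 TPM in LY-1 to LY-5 and 5.74, 3.36, 4.54, 4.16 and 4.47 TPM in NC-1 to NC-5. The groups did not overlap, but LY-5 and NC-2 nearly met. The log2 fold change was -0.85 ± 0.18 (limma adjusted p = 0.00127).

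The genes of these 3 ligands stand side by side on the plus strand of chromosome 1 within 71127 bases (155063731 to 155134857, GRCh38). A read-through gene, EFNA4-EFNA3, shares 189 exonic bases with EFNA4 and 853 with EFNA3, and it was listed at 0 in 9 of 10 libraries, with 0.325 TPM in NC-5. How reads of shared exons were split is not stated, so the separate values of EFNA3 and EFNA4 are uncertain to that extent. Within 50000 bases of the 3 genes, 7 other genes were tested, of which 4 fell, 3 did not pass and 0 rose. Of all tested genes 64.6% were called and 24.9% were called lower, and the neighbours were not refitted without NC-2. ADAM15, a membrane protease gene directly upstream of EFNA4, fell (log2 fold change -0.84 ± 0.17), as did DPM3 downstream of EFNA1 (-1.09 ± 0.26), TRIM46 (-0.89 ± 0.17) and ZBTB7B (-0.59 ± 0.15). SLC50A1, the sugar transporter gene next to EFNA1, measured 78.1 ± 8.37 TPM in LY and 77.4 ± 19.8 in DMSO. These neighbours were looked up after the values of the 3 ligands were seen.

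EFNB2 (ENSG00000125266, chromosome 13, 106489731 to 106535662), the ligand that marks arteries and binds EPHB4, rose from the lowest level of any ephrin in DMSO. It measured 4.25, 4.59, 4.40, 3.92 and 3.75 TPM in LY-1 to LY-5 and 0.718, 0.546, 0.491, 0.574 and 0.663 TPM in NC-1 to NC-5. The groups lay far apart, and mean TPM was 6.99-fold higher in LY. The log2 fold change was 1.70 ± 0.092, and the added 1 TPM makes it smaller than the ratio of means. Its p from that fit is not given, because the filter let EFNB2 in through LY alone. In the fit without a filter (20263 genes, 4217 of them at 0 in every library) its limma adjusted p was 2.44e-07. How far the genes at 0 affect that p was not tested. An antisense gene shares 1313 exonic bases with EFNB2, and without a stated strand setting its reads cannot be told apart from those of EFNB2. Of 4 endothelial markers PECAM1 and TEK were at 0 in every library. CDH5, another of the 4, was higher in LY (log2 fold change 1.56 ± 0.11) but passed the filter through LY alone. VWF, the last of the 4, was also higher in LY without overlap (0.0459 to 0.101 TPM, against 0 to 0.0125 in DMSO) and too low to be tested. The list summed to 2.74 to 3.32 TPM in LY and 0.0988 to 0.535 in DMSO. The part of these markers in the EFNB2 result was not tested.

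EFNB1 (ENSG00000090776, chromosome X, 68828997 to 68842147), a B-type ligand of cell sorting, measured 14.9, 15.3, 11.2, 14.5 and 15.6 TPM in LY-1 to LY-5 and 9.22, 6.62, 9.97, 8.17 and 10.3 TPM in NC-1 to NC-5. LY-3, the lowest LY library, was still above every control. The log2 fold change was 0.64 ± 0.13 (limma adjusted p = 0.0011), the smallest among the 7 genes that passed.

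**Figure D2:**
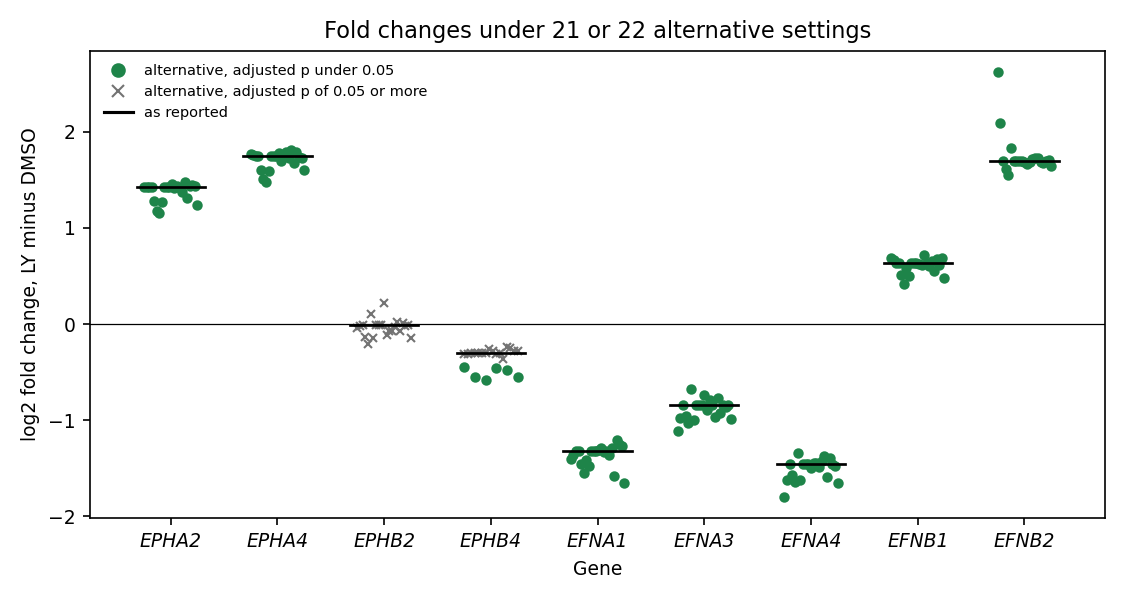
Log2 fold change (LY minus DMSO) of the 9 tested genes under 21 or 22 alternative settings, green where the adjusted p was under 0.05 and grey crosses otherwise, with the reported value as a bar. The 7 called genes stay on their side of 0 throughout, EPHB4 passes in 6 settings and EPHB2 lies on both sides of 0.

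**Figure D3:**
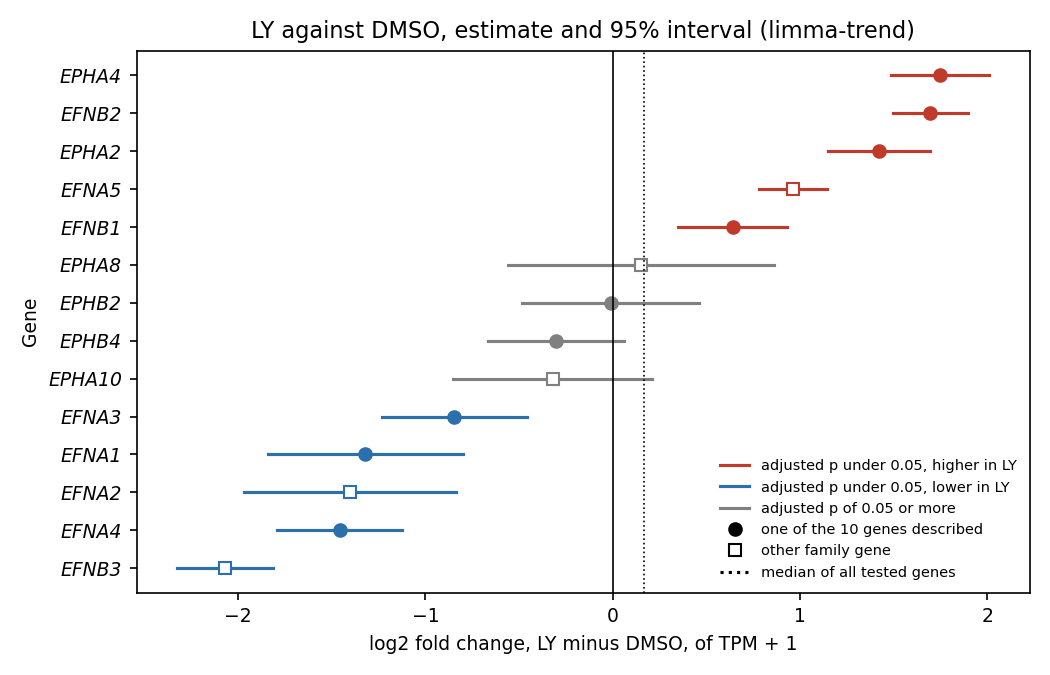
Log2 fold change (LY minus DMSO, of TPM + 1) with its 95% interval for the 14 tested family genes, the described ones as filled circles and the others as open squares. EPHA4, EFNB2 and EPHA2 lie highest at 1.75, 1.70 and 1.42, and EFNB3 lies lowest at -2.07; the dotted line is the median of all tested genes (0.17).

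The family has 12 further genes in the table, of which 5 were tested. EFNA5, an A-type ligand of axon guidance, rose (26.5 ± 1.18 TPM in LY, 13.1 ± 0.799 in DMSO, n = 5, log2 fold change 0.96 ± 0.084, limma adjusted p = 1.21e-06). EFNB3, the third B-type ligand, fell from 6.11 ± 1.10 to 0.679 ± 0.0790 TPM (log2 fold change -2.07 ± 0.12) and passed the filter through the DMSO libraries alone. EFNA2 fell from 8.31 ± 2.70 to 2.51 ± 1.09 TPM (log2 fold change -1.40 ± 0.26), and its groups touched at NC-2 (4.03 TPM) and LY-5 (4.05 TPM). EPHA10, a receptor without kinase activity, did not pass (log2 fold change -0.32 ± 0.24, limma adjusted p = 0.263), but passed downward without NC-2 (-0.56 ± 0.15, adjusted p = 0.00474). EPHA8 did not pass (0.15 ± 0.32). Direction thus was not shared by all A-type ligands: EFNA5 rose while EFNA1, EFNA2, EFNA3 and EFNA4 fell. Among B-type ligands EFNB1 rose. EFNB2 lay higher and EFNB3 lower in LY, but EFNB2 passed the filter through LY alone and EFNB3 through DMSO alone. Their directions were thus fixed in advance, and no split among B-type ligands is read from them. EPHA1, EPHA3, EPHA5, EPHA7 and EPHB6 were under 1 TPM in every library, and EPHA6 and EPHB1 were listed at 0 in all 10.

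In DMSO the receptors ranked EPHA2 (90.9 TPM), EPHB4 (83.4), EPHA4 (54.4), EPHB2 (4.47) and EPHA10 (4.21). The ranges of EPHA2 and EPHB4 overlapped there, with EPHA2 higher in 4 of 5 libraries. So did those of EPHB2 and EPHA10, with EPHB2 higher in 3 of 5. The ranges of EPHB4 and EPHA4 also overlapped, although EPHB4 was higher in all 5. Differences between genes were not tested. In LY the order was EPHA2 (243 TPM), EPHA4 (184), EPHB4 (66.0), EPHB2 (4.66) and EPHA10 (2.93), with no overlap among the first 3. Ligands in DMSO ranked EFNA1 (24.9 TPM), EFNA5 (13.1), EFNB1 (8.86), EFNA2 (8.31), EFNA4 (7.60), EFNB3 (6.11), EFNA3 (4.45) and EFNB2 (0.599), with overlapping ranges between neighbours from EFNB1 to EFNA3 and also between EFNA1 and EFNA5, where NC-2 held less EFNA1 than EFNA5. In LY they ranked EFNA5 (26.5 TPM), EFNB1 (14.3), EFNA1 (8.81), EFNB2 (4.18), EFNA2 (2.51), EFNA3 (2.09), EFNA4 (2.08) and EFNB3 (0.679). EFNA2, EFNA3 and EFNA4 overlapped there, and so did EFNB2 and EFNA2.

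Shares within a library are not altered by a single scaling factor per library, though quantile normalization, which acts on ranks, can alter them. Summed over 14 receptors, Eph TPM was 453 to 558 in LY and 167 to 278 in DMSO. EphA receptors made up 85.1% to 87.2% of it in LY and 61.8% to 67.3% in DMSO. EPHA4 held 36.6 ± 2.48% in LY and 22.8 ± 2.26% in DMSO, and EPHB4 held 13.1 ± 0.888% and 34.4 ± 2.33%. EPHB2, whose TPM did not differ detectably, held 0.412% to 1.15% in LY and 1.75% to 2.14% in DMSO. NC-2 had the highest EphA share of the controls, 67.3% beside 61.8% to 62.8%, and stayed far below the lowest LY library.

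Ephrins summed to 56.6 to 63.7 TPM in LY and 46.8 to 87.0 in DMSO, so the groups overlapped in the sum while the make-up differed. EFNA1, EFNA3 and EFNA4 together held 19.4% to 23.7% of ephrin TPM in LY and 40.6% to 52.6% in DMSO. EFNA5, EFNB1 and EFNB2 together held 68.9% to 76.2% in LY and 27.8% to 40.7% in DMSO, and these groupings were made after the values were seen. EFNB1 exceeded EFNA1 in every LY library (ratio 1.23 to 1.94) and in no control (0.279 to 0.616). Receptor TPM per ligand TPM was 7.36 to 8.76 in LY and 3.04 to 3.58 in DMSO.

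**Figure D4:**
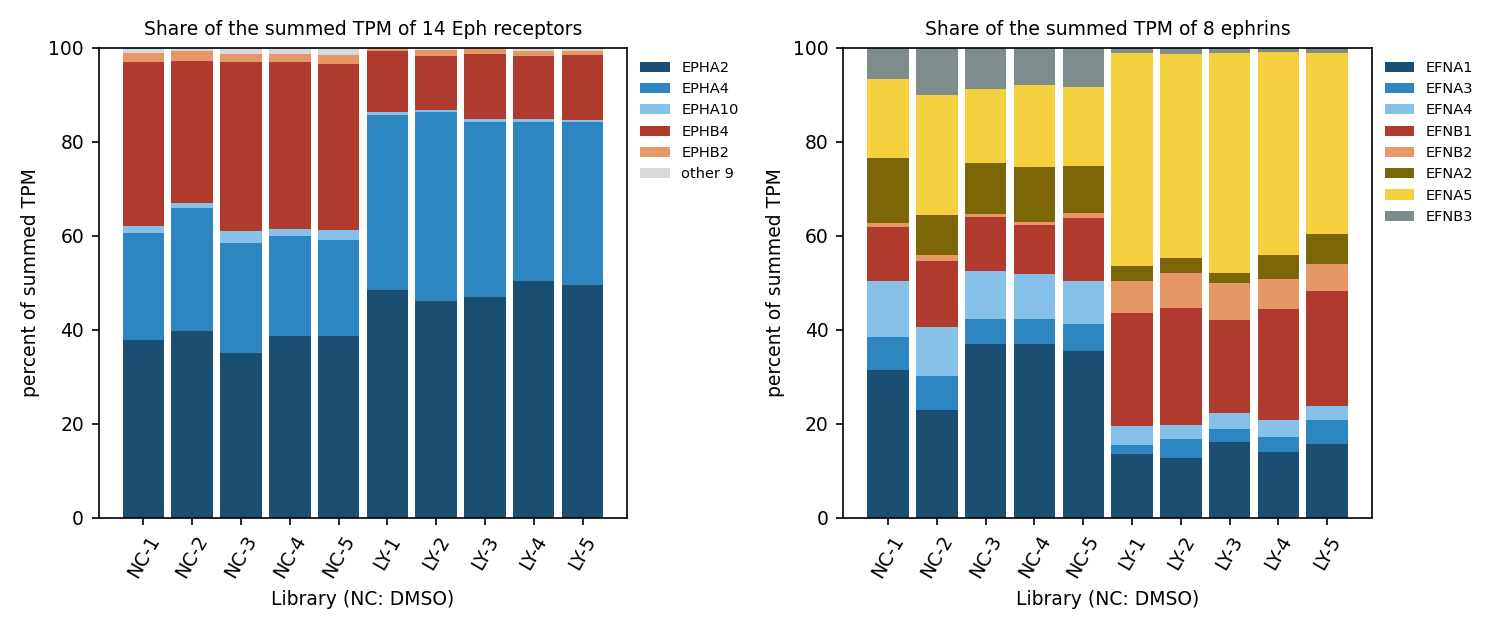
Stacked bars of the percent of summed TPM held by each Eph receptor (left) and each ephrin (right) in the 5 DMSO libraries (NC-1 to NC-5) and the 5 LY libraries. EPHB4 fills 30.3% to 36.0% of receptor TPM in DMSO and 11.6% to 13.8% in LY, and EFNA5 fills 15.8% to 25.4% of ephrin TPM in DMSO and 38.6% to 46.8% in LY.

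Eph receptors and B-type ephrins act through adapters, exchange factors, Src and Abl kinases and phosphatases. Of 45 such effectors 37 were tested: 18 rose and 7 fell, and 12 did not pass. The share called, 67.6%, was near the 64.6% of all tested genes. The median over the 37 was 0.32 (log2), beside 0.17 for all tested genes. Under median-ratio scaling 17 rose and 8 fell, and under quantile normalization 15 and 9. FYN, a Src-family kinase, was below 1 TPM in every control and reached 3.46 ± 0.316 TPM in LY (log2 fold change 2.01 ± 0.11), so it passed the filter through LY alone. The Abl kinase ABL2 rose from 7.38 ± 0.774 to 27.7 ± 3.11 TPM (1.77 ± 0.11). The adapter GRB7 fell from 6.40 ± 1.77 to 1.54 ± 0.392 TPM (-1.52 ± 0.20), and ARHGEF16, an exchange factor that binds EPHA2, from 4.05 ± 1.04 to 0.826 ± 0.384 TPM (-1.47 ± 0.19).

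Ephrins and Eph receptors are cut at the surface by metalloproteases and then by gamma-secretase. Of 10 genes of these enzymes, all tested, 1 rose, 1 fell and 8 did not pass (20% called, beside 64.6% of all tested genes). ADAM10, which cleaves ephrins in complex with their receptors, fell (39.0 to 28.1 TPM, log2 fold change -0.45 ± 0.12, limma adjusted p = 0.0058), and NCSTN, a gamma-secretase subunit, rose (0.39 ± 0.11, adjusted p = 0.00965). With median-ratio scaling 0 rose and 4 fell, and with upper-quartile scaling 0 and 5. Without NC-2 1 rose and 4 fell, where 70.5% of all tested genes were called. The NCSTN call thus depended on scaling, and the low share called depended on NC-2 and on scaling.

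EPHA2 and EPHA4 both belong to a published score of MAPK pathway output. Of the 8 other genes of that score 7 were tested, and 2 rose, 1 fell and 4 did not pass (42.9% called, beside 64.6% of all tested genes). PHLDA1 (log2 fold change 2.60 ± 0.26) and SPRY2 (0.83 ± 0.17) rose, and the cyclin CCND1 fell (-1.05 ± 0.096). With quantile normalization 2 rose and 2 fell. In the intestine EPHB2 and EPHB3 are Wnt/TCF targets: of 11 further such targets 4 were tested, CD44 (0.79 ± 0.12) and ZNRF3 (0.54 ± 0.095) rose, and TCF7 (-2.25 ± 0.26) and NOTUM (-0.51 ± 0.14) fell. All 4 were thus called, where 64.6% of all tested genes were. Of the targets too low to be tested, AXIN2 and NKD1 were lower in LY without overlap and LEF1 was higher without overlap. The groups overlapped in LGR5, ASCL2, RNF43 and SP5.

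Receptor tyrosine kinases outside the Eph family also split. Of 39 listed, 18 were tested: 7 rose, 8 fell and 3 did not pass (83.3% called, beside 64.6% of all tested genes). FGFR1 (log2 fold change 2.42 ± 0.13) and EGFR (0.99 ± 0.087) rose, and PTK7 (-2.54 ± 0.21) and ERBB3 (-2.23 ± 0.099) fell. ERBB3 passed the filter through DMSO alone. In the other guidance families 3 of 23 tested genes rose and 11 fell, with 9 not called and a median of -0.31 (log2). The share called, 60.9%, was near the 64.6% of all tested genes, of which 39.8% rose and 24.9% fell. SEMA3C (2.39 ± 0.15) and SEMA3D (2.05 ± 0.12) rose, and SEMA6B (-3.00 ± 0.17) and SEMA4B (-2.08 ± 0.18) fell. SEMA6B passed the filter through DMSO alone, and so did SEMA3F, which also fell.

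**Figure D5:**
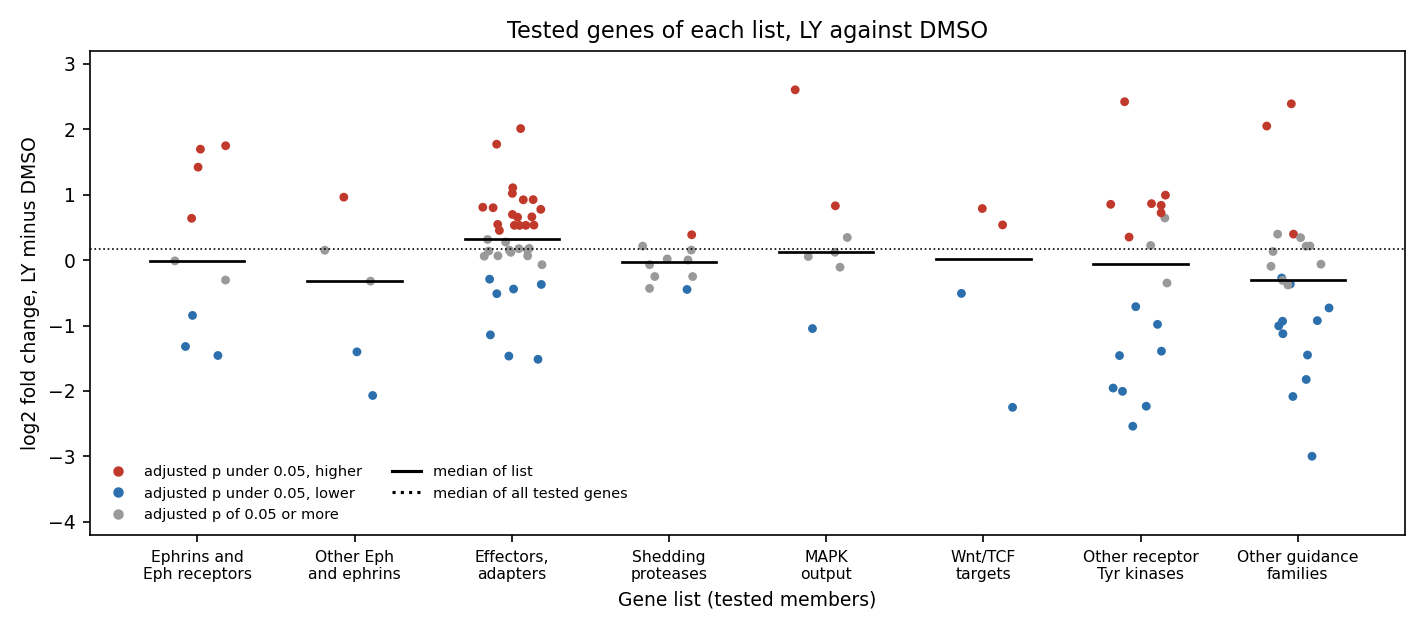
Log2 fold change (LY minus DMSO) of each tested gene in 8 lists, red and blue for an adjusted p under 0.05 (higher and lower in LY) and grey otherwise, with the list's median as a bar and the median of all tested genes (0.17) dotted. The ephrins and Eph receptors spread to both sides of their median of -0.012.

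By pattern over the 10 libraries, the genes most like EPHA2, the receptor with the highest mean, were PTPRF (Pearson r = 0.998), ZNF746 (0.998) and NCDN (0.998). Those most like EFNA1, the ligand with the highest mean in DMSO, were STAT2 (0.994), KLHDC3 (0.991) and STK36 (0.990). The points are the 5 LY and 5 DMSO libraries together, so r also reflects the difference between the groups. Outside the 10 genes described, 1123 tested genes (9.64%) reached r above 0.95 with EPHA2 and 499 (4.28%) with EFNA1.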

How the data were processed

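RNA was taken from PANC-1 cells and made into mRNA libraries with the Hieff NGS MaxUp kit, per the labels' protocols. The authors deposited 1 table of TPM (a relative level normalised for transcript length), with 1 column per library. Both human and mouse builds stand in the submitters' processing notes, with no role given. Aligner, counter and annotation: not given in the sources used here. Without read totals no counting interval can be given.

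Symbols came from a gene name table (20148 of 20263 genes) and GENCODE release 29 (76 more), and positions from the latter. Genes with at least 1 TPM in at least 5 libraries (11663) entered limma 3.58.1 in R 4.3.3 on log2(TPM + 1), with a mean-variance trend, the group as the only term and Benjamini-Hochberg adjustment over all of them. In simulated data of 11663 genes the fit recovered 85% of 100 planted changes of 1 on the log2 scale and 98% of 100 changes of 2. Changes were planted only in genes with a mean log2(TPM + 1) above 2, with noise independent between genes. The rates therefore do not cover genes near 1 TPM or a shift shared by many genes of a library, as in NC-2.

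Members and gene lists were chosen with earlier results of these data known. Named genes are all family members, up to 2 called genes per list and direction with the largest change, and the 3 genes closest to the most abundant receptor and ligand by Pearson r. Neighbours on chromosome 1 and promoter motifs were added after the values were seen. Alternative settings are listed in the closing section. Protein sequences were not used here, and 1 leukocyte marker is not reported here.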

Additional observations from a re-analysis of the deposited data

Results flagged for a closer look

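In 2 of 18 sets of 5 values (9 tested genes in 2 groups) 1 library lay far from the other 4, by the ratio of its gap to the whole range (above 0.71 for 5 values). Chance gives this in about 1 in 20 independent sets, or 0.9 of 18, but these sets share the same libraries. EPHB4 in control NC-2 measured 50.7 TPM, with the other controls at 86.0 to 97.3. NC-2 was the lowest control in 63.4% of all tested genes, so a low value there is not particular to EPHB4. EFNB1 in LY-3 measured 11.2 TPM, with the other LY libraries at 14.5 to 15.6.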

How the results depend on the processing

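Results were recomputed under 22 alternatives: pseudocounts of 0.1 and 0.5, no filter, a filter at 5 TPM, 3 scalings between libraries, removal of mitochondrial genes, limma without trend or with robust moderation, an exact permutation test per gene, each library left out, and NC-2 left out with median-ratio scaling. EPHA2, EPHA4, EFNA1, EFNA3, EFNA4 and EFNB1 kept direction and call under every alternative in which they were tested. So did EFNB2 (log2 fold change 1.55 to 2.62, the latter at a pseudocount of 0.1), but the filter at 1 TPM let it in through LY alone. The fit without a filter does not select it in this way, but includes 4217 genes at 0 in every library. The SE of EFNB2 was 0.060 in that fit and 0.092 in the main fit. How far the genes at 0 affect its p for genes near 1 TPM was not tested. The exact permutation test over 252 assignments gave the 7 called genes its smallest p, 0.0079. Any gene whose groups do not overlap reaches that p, and 49.4% of all tested genes did not overlap. For EFNB2 the filter fixed this outcome in advance. The count of genes that fell was 3 as reported and 1 with the filter at 5 TPM, which kept 5 of the 10 genes and dropped EFNA3 and EFNA4; 4 rose as reported and 3 with that filter. Leaving out 1 library at a time gave 4 genes that rose each time, EFNB2 included, and 3 to 4 that fell, 4 without NC-2, when EPHB4 passed. Without NC-2 more genes were also called over the whole table: 70.5%, beside 64.6% as reported, with 3610 lower, beside 2899. EPHB4 ranged from -0.58 to -0.24 and passed under 6 alternatives. EPHB2, near 0 as reported, turned positive with quantile normalization (0.11) and without LY-1 (0.22), NC-1 (0.025) or NC-3 (0.015), passed in none, and ranged from -0.11 to 0.22 with 1 library left out. Over all genes tested the median moved from 0.17 to 0.034 (median-ratio), -0.058 (upper-quartile) and 0.050 (quantile).

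No paired analysis was possible because the numbers in the control column names match no sample label, and a column number alone pairs no samples, so the planned fit with the replicate number as a block was not run. With TPM alone, the precision of the genes near 1 TPM, such as EPHB3 and EFNB2 in DMSO, cannot be judged from read numbers.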
